A study of Mus musculus with 2 samples.

Results

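The murine IFI200 genes encode a family of interferon-inducible proteins that bind DNA through HIN domains, and most of them also carry a pyrin domain for contacts with other proteins. They lie side by side on chromosome 1 and have arisen by duplication. Together with STING, ZBP1 and the exonuclease TREX1 they belong to the machinery by which a cell detects or removes DNA in its cytosol and, upon detection, starts type I interferon, inflammasome or cell death programmes.

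The members described here are 9 genes chosen by name from the deposited comparison of 2 lung squamous cell carcinoma (SCC) lines, out of 22479 genes named in that table. They comprise Ifi202b, Ifi203, Ifi204, Ifi205, Mnda and Aim2 of the IFI200 family, and Zbp1, Tmem173 and Trex1. All 9 have a probe set, 15 in all. A total of 8 of the 15 probe sets name 1 gene, and 7 name several and are given as shared. The genes were proposed with the fold changes of this same table in view, so their values are a description without a test.

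The lines, labelled S1 and S2, were grown in culture and come from lung SCC of KA/KA mice. These mice carry a kinase-dead Ikkα knock-in on the FVB background, so that both lines share this allele. Per the study's methods they were sorted by Sca1 and CD24 from a parental lung SCC line, KALLU, and the line high in Sca1 and without CD24 was called KALLU+, the line low in Sca1 and with CD24 KALLU-. S1 is taken as KALLU+ and S2 as KALLU- from the titles of the deposited comparison. Each line is 1 sorted population, and the labels give 1 sample per line and no treatment. Total RNA was hybridised to Affymetrix mouse arrays, on which each probe set is a group of short oligonucleotides against 1 transcript or a few related ones. The table lists, for each of them, S1 over S2 as a linear fold change with a sign, negative where S1 was lower. It gives no signal, detection call or p-value, so the brightness behind a value is unknown, and no test, SD or replicate check was possible. In bulk RNA, fewer expressing cells and less RNA per cell cannot be told apart.

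The sorting markers were read first. The fold changes of Cd24a were -39.7, -52.9 and -62.5, lower in S1 throughout, the direction that a sort for cells without CD24 gives KALLU+. Ly6a, which encodes Sca1, was also lower in S1, at -5.95. The 3 Cd24a values thus go with reading S1 as KALLU+ and the 1 Ly6a value goes against it, and directions are given for S1 and S2 as labelled. Over all 45101 probe sets the median log2 fold change was -0.02. The scatter was gauged on genes of olfactory and vomeronasal receptors, assumed silent in both lines. Their 79 probe sets, called the receptor range here, lay between -0.55 and 0.38 on the log2 scale, and 0 of them reached 1.5-fold. The array's 24 bacterial poly-A control probe sets reached lower, lying between -0.77 and -0.28. The receptor range therefore does not bound the scatter of all probe sets. By gene medians, most markers of other cell types moved little. Of 10 immune markers, 0 had a gene median past 2-fold in either direction, with medians over probe sets from -0.44 to 0.19. Of 8 fibroblast and endothelial markers 1, Pdgfrb, was past 2-fold, at -1.16. By probe set, 1 of 13 immune ones was at least 2-fold lower in S1 and 0 higher. Of 15 fibroblast and endothelial ones, 1 was at least 2-fold higher and 3 lower. Of 8 squamous markers, among them Krt5, Krt14, Trp63 and Cdh1, 0 had a median past 2-fold. The lowest was Ivl, which encodes involucrin, at a median of -0.76 on the log2 scale. Ivl thus lay below the receptor range but inside that of the poly-A controls. Its probe sets had signed fold changes of -2.27 and -1.26. Without signals these values show differences between the lines and not whether a marker was present.

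Of the 15 member probe sets, 2 (13.3%) reached 2-fold in favour of S1, against 6.73% of the whole array, and 4 (26.7%) reached 2-fold in favour of S2, against 4.72% of the whole array. These counts enter the choice of the members and are descriptions. The remaining 9 were under 2-fold, and 7 of the 15 lay inside the receptor range. The values did not share a direction. Both extremes belonged to the IFI200 family and to its cluster on chromosome 1. The low end was at the probe sets of Ifi202b, and the high end at a probe set shared by Ifi205 and Mnda. Per gene, taking the median of its probe sets, 2 of the 9 were at least 2-fold higher, against 4.81% of all genes, and 1 was at least 2-fold lower, against 4.87%. The 2 higher genes, Ifi205 and Mnda, rest on the same pair of shared probe sets and are not independent. The median over the 9 genes was 0.21 on the log2 scale, and that over all genes was -0.04. Its sign depended on the probe sets read, since it was -0.57 with those naming 1 gene and -0.30 without the suffixes _s, _x and _a, by which Affymetrix marks probe sets that can read several transcripts, and the median over the 15 probe sets was -0.13.

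**Figure D1:**
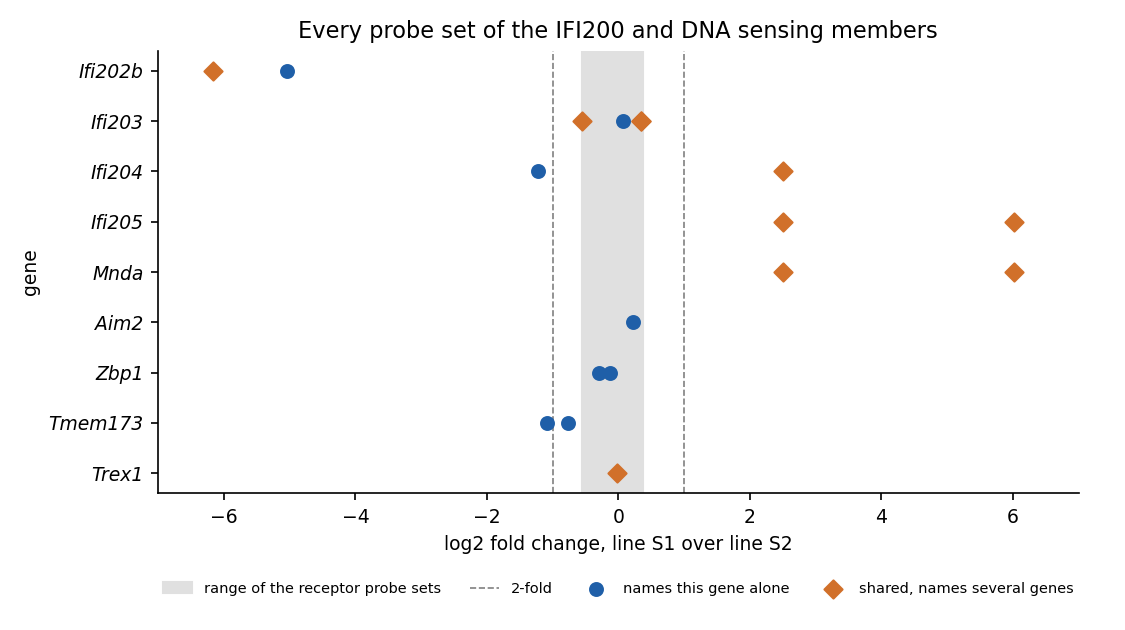
Log2 fold change of S1 over S2 (x axis) at every probe set of the 9 members (y axis), as circles where the probe set names the gene alone and as diamonds where it names several genes, with the receptor range shaded and 2-fold dashed. Ifi202b lies at -5.04 and -6.16, the probe set shared by Ifi205 and Mnda at 6.02, and the symbols of Aim2, Zbp1 and Trex1 all fall inside the shaded range.

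The member lowest in S1 was Ifi202b. It encodes p202, an IFI200 protein with HIN domains but no pyrin domain, which binds DNA and is known to antagonise AIM2. Its own probe set had a signed fold change of -32.8, a log2 value of -5.04, and ranked 52 from the lowest of the 45101 probe sets. The other, annotated with Ifi202b and the predicted locus LOC100044068, had a signed fold change of -71.5, a log2 value of -6.16, and ranked 13 from the lowest. Both probe sets lay far below the receptor range and below all other member probe sets. Both carry the suffix _s, given to probe sets whose probes match transcripts of more than 1 gene, so neither is specific to Ifi202b by design. Centring the array on its bacterial poly-A controls changed the gene's median from -5.60 to -5.15.

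The highest member probe set named Ifi205 together with Mnda. Mnda is the array's symbol for the gene that RefSeq lists as Ifi211, with Mnda among its synonyms. Ifi205 encodes D3, and both are pyrin and HIN proteins of the IFI200 family. This probe set had a signed fold change of 64.7, a log2 value of 6.02, and ranked 8 from the highest on the array. A further probe set, annotated with Ifi204, Ifi205, Mnda and Mndal, had a signed fold change of 5.68, a log2 value of 2.51, and ranked 284 from the highest. No probe set named Ifi205 or Mnda alone, so which of these genes carried the difference cannot be told apart. The suffixes are _x and _s, of which _x marks probes with matches in other transcripts.

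Ifi204 encodes p204, a nuclear and cytosolic DNA sensor and a mouse relative of human IFI16. It was read by the shared probe set at 5.68 and by 1 probe set of its own, which carries no suffix and went the other way, with a signed fold change of -2.33, a log2 value of -1.22, and rank 1538 from the lowest. Its median of 0.64 on the log2 scale therefore averaged values of opposite sign and describes neither, and the value of the gene's own probe set is -1.22. Centred on the poly-A controls, the gene's own probe set was under 2-fold, while the median was 1.09, past 2-fold in favour of S1.

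Ifi203, whose protein is found mainly in the nucleus, had values close to 0. Its own probe set was at 1.05-fold, a log2 value of 0.07. The 3 probe sets that it shares with Gm16340, listed by RefSeq as the pseudogene Ifi203-ps, and with 2 predicted loci were at -1.47, 1.27 and 1.27, or -0.56, 0.34 and 0.35 on the log2 scale. Of the 4 values, the lowest alone lay outside the receptor range, close to its edge. Aim2, the cytosolic DNA sensor that assembles an inflammasome with the adaptor ASC, had a signed fold change of 1.17 at its 1 probe set, a log2 value of 0.22 inside the receptor range.

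**Figure D2:**
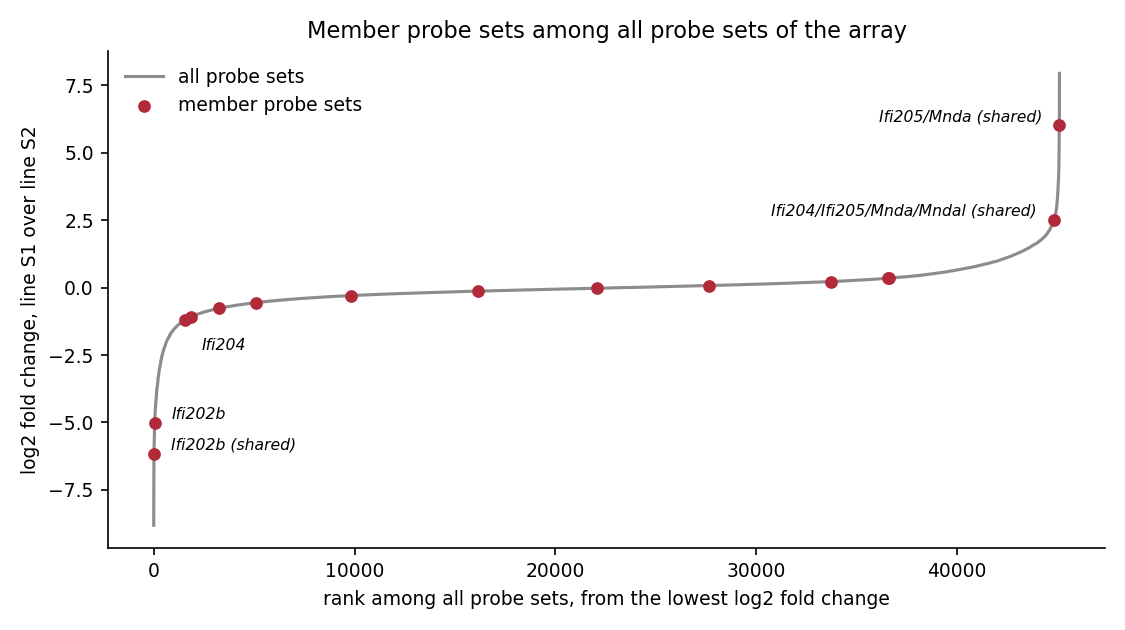
Log2 fold change of S1 over S2 (y axis) of all 45101 probe sets in order (x axis, rank from the lowest), with the 15 member probe sets as red points. The probe sets of Ifi202b rank 13 and 52 from the lowest, the one shared by Ifi205 and Mnda ranks 8 from the highest, and 7 of the others lie inside the receptor range.

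Of the members outside the IFI200 family, Tmem173 lay below the receptor range and Zbp1 and Trex1 lay inside it. Tmem173 encodes STING, the adaptor of the endoplasmic reticulum that is activated by the cyclic dinucleotide made by cGAS and signals through TBK1 and IRF3. Both of its probe sets were lower in S1, at -1.70 and -2.12 as signed fold changes, or -0.77 and -1.08 on the log2 scale, both below the receptor range and 1 of them past 2-fold. Their median was -0.92, and -0.48 when centred on the poly-A controls, on which neither probe set was past 2-fold. The probe set at -0.77 lay just inside the range of the poly-A controls themselves. Zbp1, a sensor of Z-form nucleic acids that engages RIPK3, was at -0.13 and -0.30 on the log2 scale, inside the receptor range. Trex1, the main exonuclease for cytosolic DNA, had no probe set of its own, and the 1 that it shares with Atrip was at -0.03 on the log2 scale, inside the receptor range. Zbp1 and Trex1 lay on the other side of 0 when centred on the poly-A controls, with log2 medians of 0.23 and 0.42.

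The rest of the family was then read from a list of 12 names, of which 4 further genes had a probe set under that or a former symbol. Mndal, a pyrin and HIN gene between Ifi204 and Ifi203 in the cluster, was higher in S1 at both probe sets that name it alone, at 4.75-fold and 7.70-fold, besides the shared one at 5.68. Pyhin1, the array's symbol for the gene listed by RefSeq as Ifi209, was higher at both of its probe sets, at 5.91 and 8.77, or 2.56 and 3.13 on the log2 scale. These probe sets name no other gene, so in Mndal and Pyhin1 the family held higher values that do not rest on shared annotation. The Mndal probe set at 7.70-fold carries the suffix _x, so its probes can match other transcripts. That at 4.75-fold and those of Pyhin1 carry no suffix. The other 2 genes, AI607873 (Ifi207) at -0.27 and Pydc4 (Ifi213) at 0.10 on the log2 scale, lay inside the receptor range.

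In RefSeq's order on GRCm38.p6 the cluster runs from Aim2 to Ifi205, and 11 of its genes, Ifi203-ps included, are named in the table. By their medians 4 of the 11 reached 2-fold in favour of S1, against 4.81% of all genes. Only Ifi202b reached it in favour of S2, against 4.87%, and 5 lay inside the receptor range. The 4 were Pyhin1, Mndal, Mnda and Ifi205, and they are not independent. Mnda and Ifi205 rest on the same shared probe sets, 1 of which also names Mndal. The lower gene stood between Ifi203, at 0.21, and Ifi205, whose shared probe sets were high. Of the 10 named genes on each side of the cluster, 20 in all, 1 reached 2-fold in favour of S1 and 2 in favour of S2, 14 lay inside the receptor range, and their median was -0.02.

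**Figure D3:**
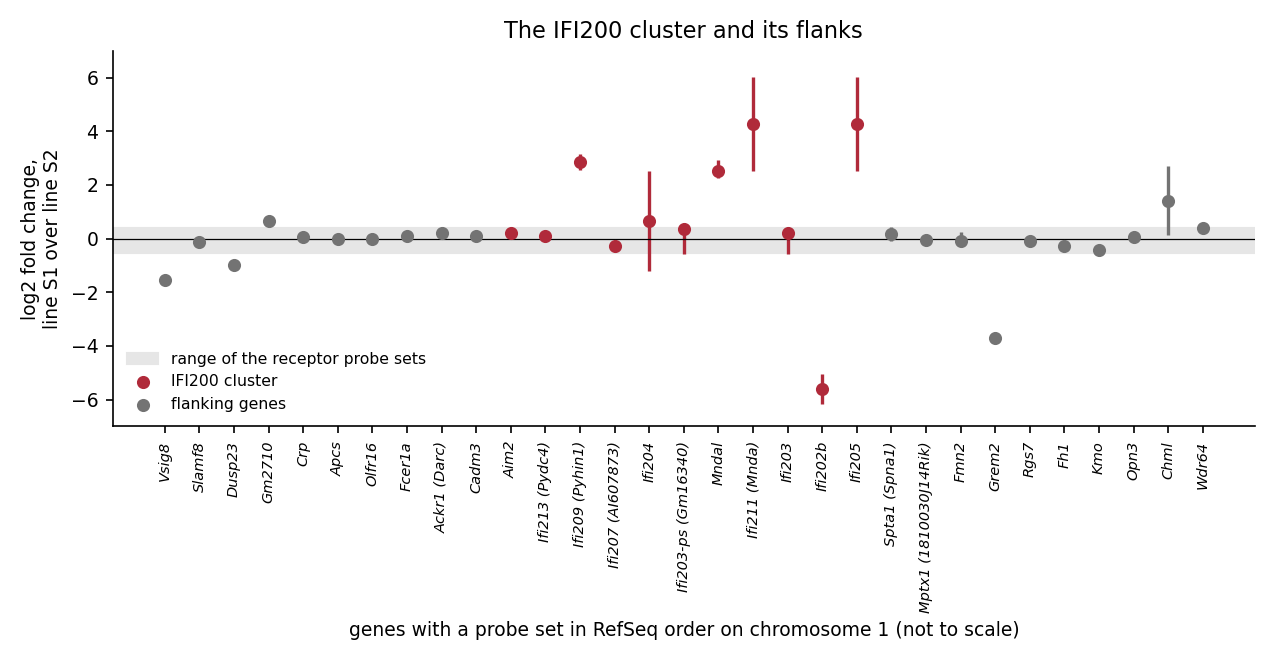
Log2 fold change of S1 over S2 (y axis) for the named genes of the IFI200 cluster (red) and 10 named genes on each side (grey), in RefSeq order on chromosome 1 and not to scale (x axis, the array's symbol in brackets where it differs). Points are medians and lines span the probe sets. Ifi202b at -5.60 stands next to Ifi203 at 0.21 and Ifi205 at 4.26, the last from shared probe sets only.

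The promoters of these genes were compared because they are a property that the choice of members did not use. Sequences came from RefSeq's promoter windows for GRCm38.p6, the reference strain's genome and not that of the FVB-derived lines, each holding 250 bases before a transcript start and 50 after it. Of the 14 family genes of the cluster 12 had a window, among them 5 of the 6 IFI200 members, Ifi203 and Mndal with more than 1 start. In the sequences below, which give the 250 bases before the start from 5′ to 3′, capitals mark GAAA followed after any 2 bases by GAAA, the core of the interferon-stimulated response element (ISRE). The first 3 are shown because the genes lie under the highest shared probe set, or beside it in sequence, yet Ifi207 lay inside the receptor range.
Ifi211 (Mnda), chr1.0:173913047.0-173913296.0, minus strand: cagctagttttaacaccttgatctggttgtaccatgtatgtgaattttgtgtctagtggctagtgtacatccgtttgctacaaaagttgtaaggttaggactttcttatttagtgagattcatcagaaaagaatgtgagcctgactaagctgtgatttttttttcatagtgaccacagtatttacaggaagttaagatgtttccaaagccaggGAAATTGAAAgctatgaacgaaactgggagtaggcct
Ifi205, chr1.0:174031756.0-174032005.0, minus strand: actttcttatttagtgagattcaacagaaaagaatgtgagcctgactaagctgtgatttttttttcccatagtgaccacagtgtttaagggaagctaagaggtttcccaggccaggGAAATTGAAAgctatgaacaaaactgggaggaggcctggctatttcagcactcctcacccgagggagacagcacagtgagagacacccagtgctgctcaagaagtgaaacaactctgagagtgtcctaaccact
Ifi207 (AI607873), chr1.0:173741810.0-173742059.0, minus strand: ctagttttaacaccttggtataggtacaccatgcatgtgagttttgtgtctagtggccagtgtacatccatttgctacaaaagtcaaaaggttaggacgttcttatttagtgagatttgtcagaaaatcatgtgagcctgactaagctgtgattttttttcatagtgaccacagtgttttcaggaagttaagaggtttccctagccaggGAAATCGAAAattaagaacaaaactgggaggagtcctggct

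In local alignments of the 300-base windows, Ifi211 and Ifi205 matched at 93.5% of 201 columns, Ifi211 and Ifi207 at 88.0% of 291 columns, and Ifi205 and Ifi207 at 86.6% of 209 columns. The shared probe sets of Ifi211 and Ifi205 had a median of 4.26 on the log2 scale, and the 1 probe set of Ifi207 was at -0.27. Which of Ifi211 and Ifi205 carried the high values cannot be told apart. Whether closeness of sequence bears on the fold changes was not tested. The next pair is shown because its windows are closer still while the genes differed by their own probe sets.
Mndal, first start, chr1.0:173880188.0-173880437.0, minus strand: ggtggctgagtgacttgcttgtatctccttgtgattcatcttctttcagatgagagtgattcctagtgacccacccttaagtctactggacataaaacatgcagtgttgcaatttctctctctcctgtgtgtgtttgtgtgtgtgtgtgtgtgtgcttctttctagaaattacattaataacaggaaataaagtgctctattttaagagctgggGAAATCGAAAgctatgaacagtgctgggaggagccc
Ifi203, second start, chr1.0:173942493.0-173942742.0, minus strand: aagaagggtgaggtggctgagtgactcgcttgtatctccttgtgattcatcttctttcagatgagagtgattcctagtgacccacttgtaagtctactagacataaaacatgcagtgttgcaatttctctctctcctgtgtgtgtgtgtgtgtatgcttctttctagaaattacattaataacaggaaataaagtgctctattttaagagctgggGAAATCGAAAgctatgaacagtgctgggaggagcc

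These windows of Mndal and Ifi203 matched at 94.3% of 299 columns, and both hold the same letters, GAAATCGAAA, shortly before the start. The probe sets naming Mndal alone were at 2.25 and, with the suffix _x, at 2.95 on the log2 scale. That naming Ifi203 alone was at 0.07. The last 2 sequences are those of the gene lowest in S1 and of the family gene with the highest value at a probe set naming it alone, and neither holds a match.
Ifi202b, chr1.0:173982845.0-173983094.0, minus strand: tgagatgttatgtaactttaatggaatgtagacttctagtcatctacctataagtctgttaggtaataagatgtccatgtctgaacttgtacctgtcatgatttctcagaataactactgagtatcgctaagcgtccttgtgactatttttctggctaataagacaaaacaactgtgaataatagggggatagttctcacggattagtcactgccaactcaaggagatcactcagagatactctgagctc
Ifi209 (Pyhin1), chr1.0:173630609.0-173630858.0, plus strand: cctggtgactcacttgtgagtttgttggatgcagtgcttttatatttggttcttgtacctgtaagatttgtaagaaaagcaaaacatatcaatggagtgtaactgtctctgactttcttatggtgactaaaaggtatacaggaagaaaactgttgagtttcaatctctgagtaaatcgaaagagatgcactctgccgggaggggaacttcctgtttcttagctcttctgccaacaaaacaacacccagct

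The windows of Ifi202b and Aim2 had no close counterpart in the family. The best local alignment of Ifi202b covered 135 columns at 65.2% identity and that of Aim2 27 columns at 77.8% identity, whereas 8 of the 66 gene pairs aligned over at least 200 columns at 86.6% identity or more. That of Ifi209 was close to the window of Ifi214, at 95.7% of 300 columns, and Ifi214 holds a match, GAAATCGAAA, 79 bases before its start. The corresponding letters in Ifi209 are TAAATCGAAA, which differ from it in the first base only and do not count as a match. Ifi214 was not named in the table.

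On both strands, the ISRE core was found in 9 of the 12 family genes, in 10 of their 14 windows, and in 1131 of all 32851 RefSeq windows, or 3.44%. The letters GAAATCGAAA were found in 7 of the 9 genes. Of the 2 genes higher in S1 at probe sets naming them alone, Mndal held a match and Ifi209 none. Ifi211 and Ifi205, which are read only together, held 1 and 2 matches. The second match of Ifi205, on the other strand, lies after the start, from base 24 to 33, outside the printed sequence. Of the genes inside the receptor range by their medians, Ifi213, Ifi207 and, at its second start, Ifi203 held a match and Aim2 none. Matches were thus found both among genes higher in S1 and among genes inside the receptor range. Whether the core bears on the fold changes was not tested. The gamma-activated site TTCNNNGAA was found in 1 of the 12 genes, Ifi202b, and in 8.30% of all windows, a loose NF-κB motif, GGGA followed after any 4 bases by CC, in 4 of the 12 and in 20.7% of all windows, and TATAAA in 7 of the 12 and in 13.6%. No matches of different motifs overlapped in these windows. A match describes the letters of the reference window and not the binding of a factor.

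**Figure D4:**
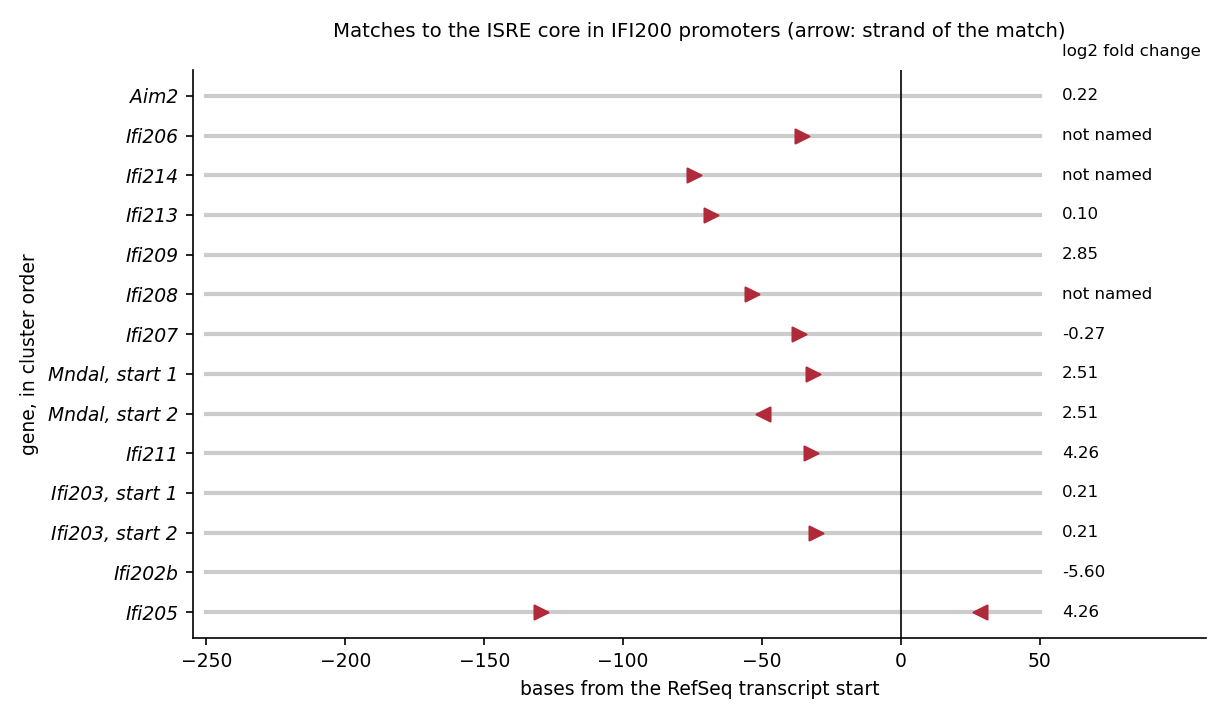
Matches to the ISRE core (triangles, pointing right for the strand of transcription and left for the other) from 250 bases before to 50 after each RefSeq start (x axis) in the windows of 12 IFI200 family genes, in cluster order (y axis), with the gene's median log2 fold change of S1 over S2 at the right. Mndal and Ifi203 have a match at nearly the same place with medians of 2.51 and 0.21, and Ifi202b at -5.60 has none.

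The other genes of DNA sensing were read from 8 lists by role, the remaining family included, with 65 genes in all. Of these, 10 had a median at least 2-fold higher in S1, or 15.4%, against 4.81% of all genes, 6 at least 2-fold lower, or 9.23%, against 4.87% of all genes, and 49 were under 2-fold. The lists were drawn up with earlier results of these data known, so these shares are descriptions. Among 12 further DNA sensors, 6 had medians inside the receptor range and 2 were past 2-fold, both higher in S1. These were Dhx36, a helicase, at 1.41 on the log2 scale with all 3 probe sets past 2-fold, and Lrrfip1 at 1.84, whose 3 probe sets ranged from -0.44 to 2.10. The gene of cGAS, the enzyme upstream of STING, stands in the table as E330016A19Rik and was at 0.35 and 0.52, in part above the receptor range. Dhx36 was above the receptor range at every probe set.

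Among 14 kinases, transcription factors and regulators that act with STING, 1 reached 2-fold in favour of S1 and 2 in favour of S2. Of all genes, 4.81% and 4.87% did so. Ddx3x, a helicase that supports TBK1 signalling, was at 1.41 with its 3 probe sets between 1.39 and 1.42. Enpp1, the enzyme that hydrolyses the cyclic dinucleotide made by cGAS, had a median of -2.21, with probe sets at -1.51, -4.62 and -6.07 as signed fold changes. Ikbke, a kinase related to TBK1, was at -1.12 at its 1 probe set. Tbk1 was at 0.62 and Irf3 at 0.13, the latter with 4 probe sets between -0.30 and 0.51. Of 8 nucleases and editing enzymes that limit sensing, 0 had a median past 2-fold, and their median was -0.06.

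Among 5 genes of necroptosis, through which ZBP1 acts, 2 were at least 2-fold lower in S1 and 0 higher. Of all genes, 4.87% were at least 2-fold lower and 4.81% higher. Ripk3, the kinase that ZBP1 engages in necroptosis, had a signed fold change of -42.7 at its 1 probe set, a log2 value of -5.42. Mlkl, the pore-forming effector downstream of RIPK3, was at -4.36, or -2.12 on the log2 scale. The other 3 genes of that list, Ripk1, Casp8 and Fadd, were under 2-fold. In the inflammasome list Casp4, the caspase of the pathway activated by cytosolic lipopolysaccharide, was at -13.6, or -3.77 on the log2 scale, while Pycard, which encodes ASC, was at 0.21 and Casp1 at -0.33. Of the 6 inflammasome genes, 5 were under 2-fold.

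Of 6 type I interferon and chemokine genes and others induced after DNA sensing, 4 were at least 2-fold higher in S1 and 2 were under 2-fold. The signed fold changes were 12.5 for Isg15, a ubiquitin-like modifier, at a probe set that it shares with Gm9706, 11.5 for Ifit1, an antiviral RNA-binding protein, 7.20 for the chemokine gene Cxcl10, and 3.31 for Ccl5. Ifnb1, the gene of interferon-β, was at 1.36 and Ifna4 at 1.03. The 10 subunits of RNA polymerase III, which can transcribe cytosolic DNA into an RNA ligand, had a median of -0.09, with Polr3g at 1.31 and its paralogue Polr3gl at -1.11 past 2-fold in opposite directions, each at 1 probe set.

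**Figure D5:**
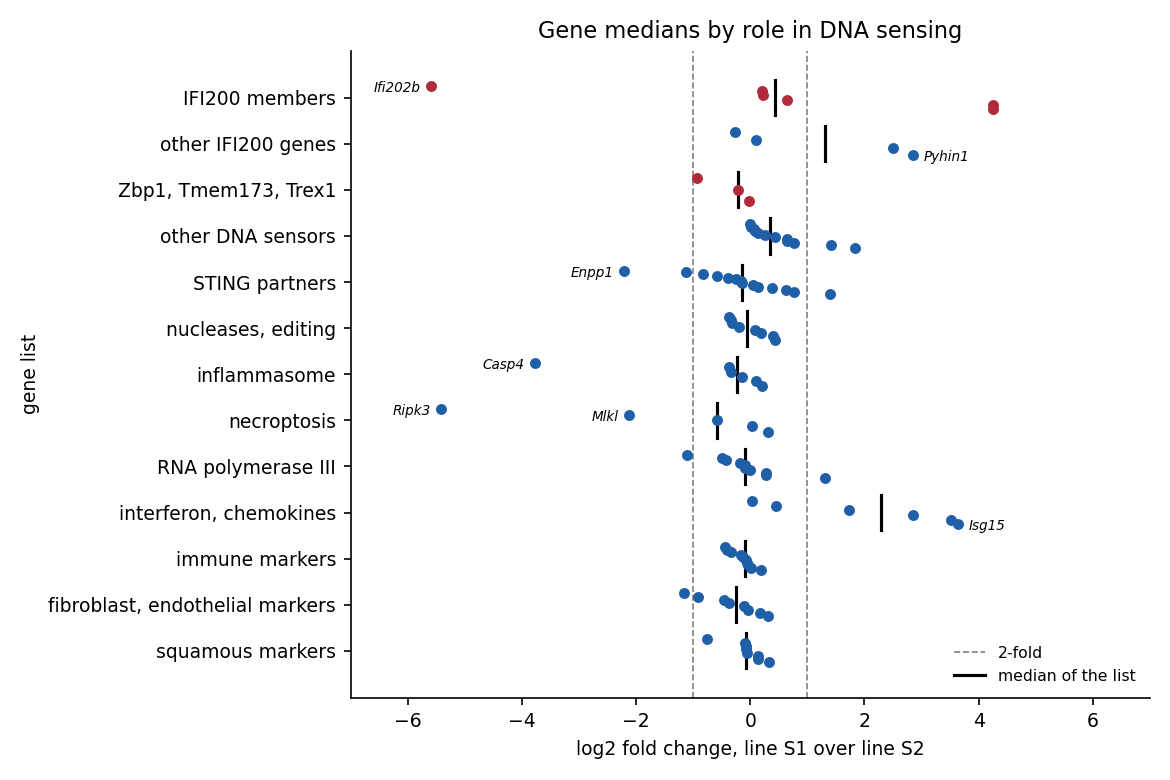
Median log2 fold change of S1 over S2 per gene (x axis) for the members (red) and for the other lists by role and the cell type markers (blue, y axis), with the median of each list as a black bar and 2-fold dashed. Ripk3 at -5.42 and Ifi202b at -5.60 are the lowest genes shown. Of the 6 genes listed as induced after DNA sensing, 4 lie past 2-fold to the right, against 4.81% of all genes. These are Isg15, Ifit1, Cxcl10 and Ccl5, and the interferon genes Ifnb1 and Ifna4 are under 2-fold.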

How the data were processed

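Total RNA of 2 cultured lines, labelled S1 and S2, was measured on Affymetrix GeneChip Mouse Genome 430 2.0 arrays, with 1 sample per line in the labels. The authors deposited 1 table of 45101 probe sets with a gene annotation and the signed linear fold change of S1 over S2, their own comparison, and these fold values are the only measurements used. The study's methods name Partek Genomics Suite and the submitters' processing notes name MAS5. Background correction, normalization and the number of arrays per line are not given in the sources used here, and scaling between the arrays bears directly on every value.

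The fold changes were converted to log2, keeping the sign, and summarised per gene as the median of every probe set naming it, shared ones included. Named are all members with every probe set, of the other lists the genes with a median past 2-fold, and Mb21d1 (cGAS), Irf3, Tbk1, Pycard, Casp1, Ripk3, Mlkl, Ifnb1, Ly6a and Cd24a. Other genes named were chosen after their values were seen. Members and lists were chosen with earlier results of these data known, as were the receptor gauge, the poly-A centring and the limits for close promoter pairs (200 columns, 80% identity). Symbols absent from the table were matched through RefSeq synonyms (GRCm38.p6). Promoter windows were searched on both strands and aligned locally with Biopython 1.88 (match 1, mismatch -1, gap opening -3, extension -1). The conversion to log2, the 2-fold counts for genes without shared probe sets and the motif search were tested on simulated data. The other steps were not. Python 3.11.15, numpy 2.4.6, pandas 2.3.3 and matplotlib 3.10.9 were used.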

Additional observations from a re-analysis of the deposited data

How the results depend on the processing

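No paired analysis was possible because S1 and S2 are 1 sample each and the table holds a single value per probe set, and for the same reason no sample could be left out. The counts of 2 higher and 4 lower member probe sets depended on which probe sets were read. With only those that name 1 gene, 0 were higher, 3 were past 2-fold in all, and the median over the members was -0.57 in place of 0.21, since the shared probe sets hold both of the high values. Without the suffixes _s, _x and _a, 0 were higher, 1 was lower, 1 was past 2-fold in all, and the median was -0.30, since all but 1 of the probe sets past 2-fold carry a suffix. At 4-fold 2 were lower, as were 2 when centred on the poly-A controls, whose 24 probe sets had a median of -0.45 on the log2 scale. A threshold of 1.5-fold or centring the array on its own median moved these counts by less than 1.5 times. Of 38 values of single members under an alternative, 30 moved by less than 0.49 on the log2 scale, the pooled SD of a gene's probe sets, and 8 by more, and 5 changed sign. Many of the 30 could not have moved further. Each centring shifts every gene by the same amount, less than 0.49, and a gene with 1 probe set has no other to read. The count is therefore no measure of robustness. These 5 were Ifi204 at -1.22 by its own probe set and again without suffixes, Ifi203 at -0.56 by its largest change, and Zbp1 and Trex1 on the poly-A controls. Ifi205, Mnda and Trex1 have no value from probe sets that name 1 gene, and these and Ifi202b have none without suffixes. Precision is unknown, as the table gives no signal over background.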
